A study of Mus musculus with 5 samples.

Results

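Surface receptors that hold haematopoietic stem cells (HSCs) in the bone marrow, or guide them back to it, were read through 10 genes in sorted mouse HSCs: the chemokine receptor gene Cxcr4, the integrin genes Itga4, Itga6, Itgb1 and Itgb2, the adhesion genes Cd44, Selplg and Cd9, and Cd47 and Robo4. They were chosen by symbol, with earlier results of these data known, and all 10 were found among the 35976 gene rows of the count table. The libraries were 3 labelled Ythdf3-/- and 2 labelled WT, each from a different mouse of strain C57BL/6, and HSCs were sorted by FACS (Lineage- Sca-1+ c-kit+ CD34- CD150+), 30 cells at a time, for Smart-seq2. The labels give neither the age of the mice nor the kind of Ythdf3 allele. YTHDF3 binds mRNA in the cytoplasm where it carries N6-methyladenosine (m6A), and the design asks which RNAs differ in HSCs that lack it.

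HSCs stay in their niche by several kinds of contact. CXCR4 binds the chemokine CXCL12 made by marrow stroma, and its signal switches integrins to their binding state. Integrins are pairs of an alpha and a beta chain: alpha 4 beta 1 binds VCAM-1 and fibronectin, alpha 6 beta 1 binds laminins, and beta 2 chains pair with leukocyte alpha chains to bind ICAMs. CD44 binds hyaluronan, PSGL-1 (Selplg) binds selectins during rolling on vessel walls, CD9 is a tetraspanin that gathers integrins in the membrane, CD47 signals through SIRPA on macrophages against phagocytosis, and ROBO4 is a guidance receptor of HSCs and endothelium.

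The targeted gene went against its labels, so libraries are named here as labelled. Ythdf3 (chr3:16183212-16217037, mm10, GENCODE M21) was counted 2, 339 and 366 times under the labels Ythdf3-/- 1, 2 and 3, against 20 and 29 times under WT 1 and 2. Its mean was 29.9 ± 26.7 CPM (counts scaled to a common library total, SD, n = 3) under the Ythdf3-/- label and 2.22 ± 1.44 CPM (SD, n = 2) under the WT label, with p = 0.6 in a two-sided exact permutation test, for which the smallest possible p is 0.2. The series text counts 2 knockout and 3 wild-type samples, whereas the sample labels give 3 and 2. Totals ran from 6357862 to 9076806 counts under the Ythdf3-/- label and from 8968162 to 16650134 under the WT label. All 14 HSC markers, Ly6a, Kit and Procr among them, had counts in every library, but some had very few. Slamf1 (CD150) had 1 count in the library labelled WT 2, and Tek had 2 in that labelled Ythdf3-/- 3. Fgd5 had 2 and 5 counts in those labelled Ythdf3-/- 1 and 3, and Ctnnal1 had 5 in that labelled Ythdf3-/- 1. At least 10 CPM was reached by 12, 14 and 12 of the 14 under the Ythdf3-/- label and 14 and 12 under the WT label. Their summed level was 2414.3, 3560.5 and 3795.4 CPM under the Ythdf3-/- label and 3112.8 and 1932.1 CPM under the WT label.

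Some libraries stood apart by markers of other cell types. The 4 adult globin genes summed to 35523.4 CPM in the library labelled Ythdf3-/- 1 and to between 31.1 and 423.1 CPM in the other libraries. Gata1 and Car1, genes of erythroid progenitors, reached 118.3 and 456.4 CPM in the library labelled WT 2 and at most 0.36 and 3.77 CPM elsewhere. The 9 B lymphoid markers summed to 1303.0, 218.6 and 96.5 CPM under the Ythdf3-/- label and 564.4 and 57.1 CPM under the WT label. At least 10 CPM was reached by 7, 1 and 1 of them under the Ythdf3-/- label and by 7 and 1 under the WT label. In the libraries labelled Ythdf3-/- 2, Ythdf3-/- 3 and WT 2 most of the sum was Cd79b, at 206.4, 85.5 and 44.7 CPM. The 10 monocyte, macrophage and dendritic cell markers summed to between 88.1 and 242.7 CPM under the Ythdf3-/- label and between 48.6 and 52.7 CPM under the WT label. Csf1r, Cd14 and Adgre1 were at or near 0 throughout and Itgax was at 0. C1qc had 57.3, 32.8 and 36.9 CPM under the Ythdf3-/- label and 0.601 and 0 CPM under the WT label. C1qb had 0, 30.8 and 34.5 CPM against 0.721 and 47.4 CPM, and Cd68 had 0.315, 0 and 122.6 CPM against 23.6 and 0.223 CPM. C1qa, Ly86 and Irf8 reached 33.5, 24.4 and 43.1 CPM in their highest libraries, labelled Ythdf3-/- 1, Ythdf3-/- 3 and Ythdf3-/- 1. The 8 T and NK markers summed to 93.1, 56.8 and 14.1 CPM under the Ythdf3-/- label and 0.841 and 10.3 CPM under the WT label. Of them, 5 (Cd3d, Cd3g, Cd4, Cd8a and Klrd1) were at 0 in every library, and Cd3e had 1 count in all. Nkg7 had 49.2, 45.4 and 1.14 CPM under the Ythdf3-/- label and 0.841 and 2.12 CPM under the WT label. Lck had 43.9, 11.5 and 12.8 CPM against 0 and 8.14 CPM. The 5 multipotent progenitor markers summed to 263.3, 3.86 and 303.1 CPM under the Ythdf3-/- label and 251.3 and 75.6 CPM under the WT label. Among them Cd34 had 140.1, 2.2 and 243.6 CPM under the Ythdf3-/- label and 207.5 and 58.2 CPM under the WT label. The 9 neutrophil markers summed to between 860.6 and 1568.9 CPM over the libraries, with Prtn3 and Lyz2 at 305.2 CPM or more in each. Elane, Mpo and Camp peaked under the label Ythdf3-/- 3, at 3.14, 9.55 and 18.4 CPM. Elsewhere they reached at most 0.0601, 0 and 1.1 CPM. Ltf was read only under the label Ythdf3-/- 1, with 4 counts. S100a9 had 0.629, 0.11 and 21.7 CPM against 12.3 and 0.446 CPM. Csf3r had 84.5, 5.29 and 80.0 CPM against 1.26 and 70.5 CPM, and S100a8 lay between 8.97 and 16.5 CPM. Of the endothelial and stromal list, 4 of 8 genes (Cdh5, Kdr, Lepr and Cxcl12) were at 0 in all 5, and the list summed to between 52.0 and 147.4 CPM under the Ythdf3-/- label and between 61.8 and 109.8 CPM under the WT label. Of its other genes, Emcn had 123.0, 46.6 and 44.5 CPM under the Ythdf3-/- label and 63.6 and 51.5 CPM under the WT label. Pecam1 had 0.315, 4.52 and 97.2 CPM under the Ythdf3-/- label and 46.2 and 0.223 CPM under the WT label. The collagen genes were each read in few libraries, Col1a2 with 0, 8 and 40 counts under the Ythdf3-/- label and 0 in both labelled WT, and Col1a1 with 90 counts in the library labelled WT 2 and 0 in the others. In RNA pooled from 30 cells, fewer cells of a type and less RNA per cell cannot be told apart.

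**Figure D1:**
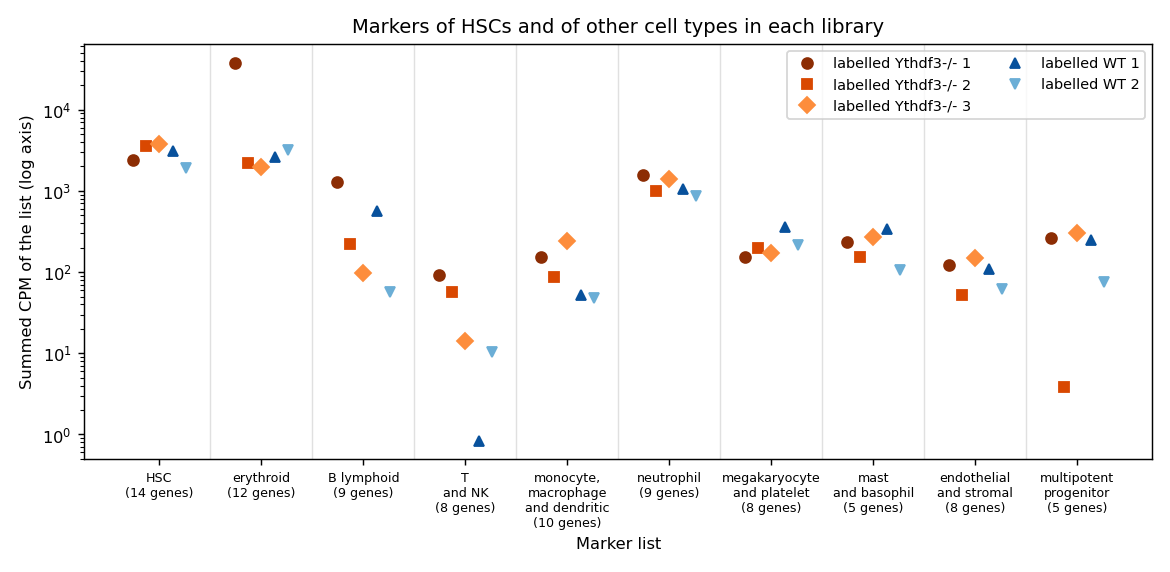
Summed CPM (log axis) of 10 marker lists in each library, with the libraries labelled Ythdf3-/- left of those labelled WT. HSC markers lay between 1932.1 and 3795.4 CPM in all libraries, while erythroid markers were highest in the library labelled Ythdf3-/- 1 and B lymphoid markers in those labelled Ythdf3-/- 1 and WT 1.

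No receptor gene passed the test of a difference between the labels. Of the 10 genes, all of which were tested, 0 passed the edgeR quasi-likelihood test (Benjamini-Hochberg adjusted p = 0.9998 for each), against 0.0% of the 11146 genes tested. None had an unadjusted p under 0.05, against 4.85% of genes tested, and the lowest was 0.163. DESeq2 called none of the 10 either, against 4.41% of the genes for which it gave an adjusted p, and limma voom called 0. Their fitted level was higher under the Ythdf3-/- label for 8, against 47.8% of genes tested, and lower for 2 (Cxcr4 and Itga6), with a median log2 fold change of 0.63 beside -0.063 over all genes tested. Every library of one label lay outside the range of the other for 5 of the 10, as for 20.7% of all genes tested. These were Itga4, Cd44, Selplg and Cd9, each higher in every library labelled Ythdf3-/- (9.74% of genes tested), and Cxcr4, lower in each of them (11% of genes tested). Since the 10 genes were chosen with earlier results of these data known, the shares are a description and not a test.

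**Figure D2:**
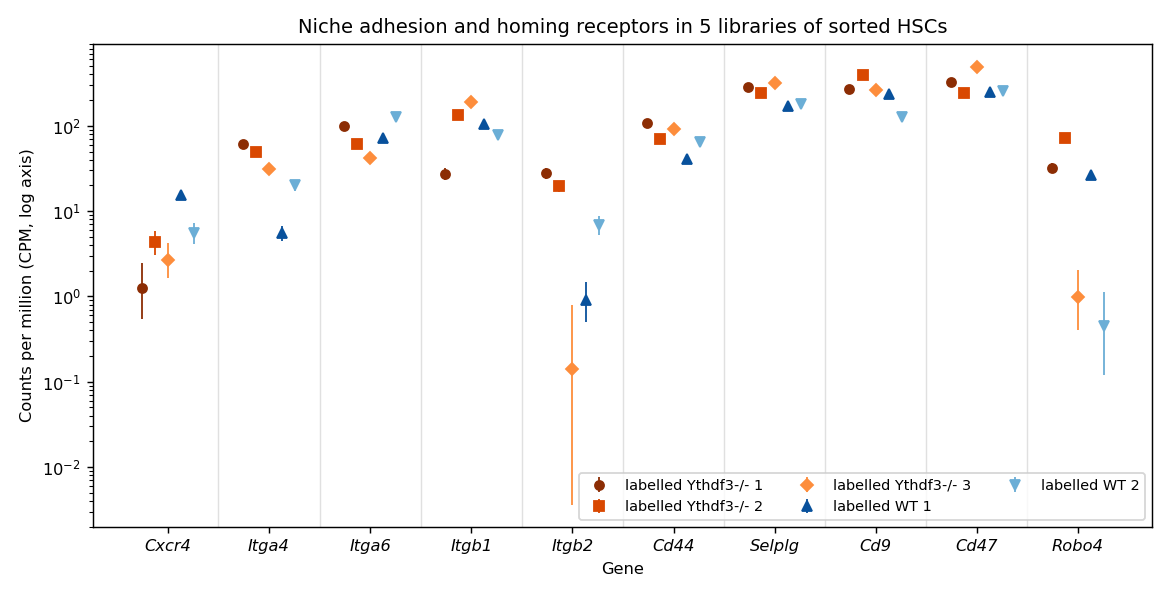
Level of each gene in CPM (log axis) in the 5 libraries, those labelled Ythdf3-/- left of those labelled WT; bars are exact 95% Poisson intervals, which cover counting error only. Itgb2 and Robo4 spread over a 195.3-fold and a 162.5-fold range, while Selplg stayed within a 1.89-fold range.

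**Figure D3:**
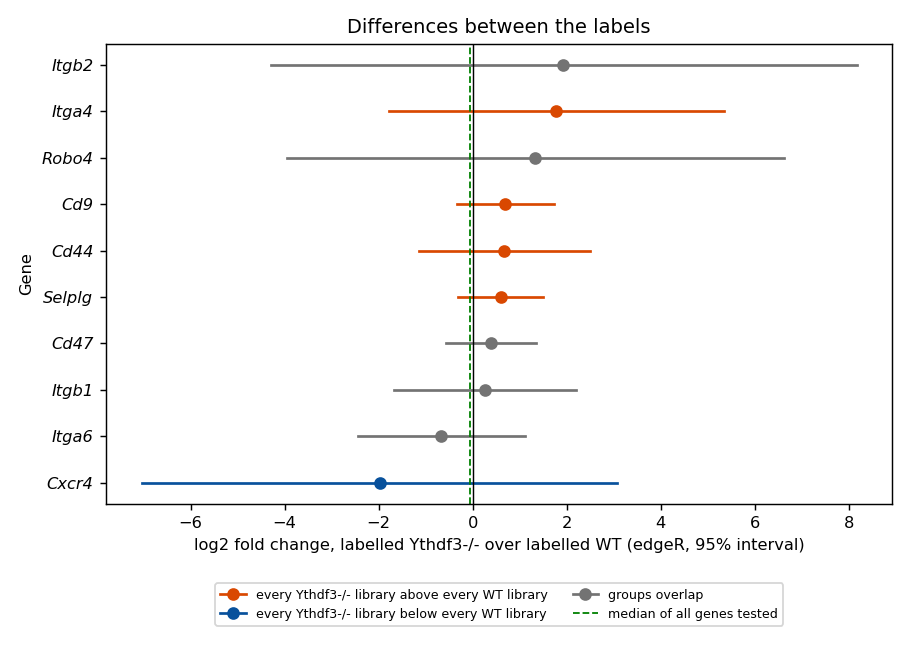
Fitted log2 fold change of each gene, labelled Ythdf3-/- over labelled WT, with its 95% interval from edgeR; colour shows whether the libraries of the labels overlap and the dashed line is the median of all genes tested (-0.063). The interval of every gene includes 0, and it is widest for Itgb2, Cxcr4 and Robo4.

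The start regions of the genes are shown for those whose labels did not overlap and for Robo4, the gene most nearly present or absent by library, a choice made after the values were seen. The windows are from RefSeq on build GRCm38.p6 and run from 250 bases before to 50 bases after the transcription start, 5′ to 3′ on the strand of the gene. Of the 10 genes, 7 had a window, and among those to be shown Selplg had none. Capitals mark matches on either strand to 5 motifs. The core bound by ETS factors was searched as CGGAAG and, in its other common form, as AGGAAG. The motif of RUNX factors was searched as TGTGGT, and that of GATA factors as AGATAA. The GC box, which SP factors bind, was searched as GGGCGG, and the TATA box of core promoters as TATAAA.
Cxcr4: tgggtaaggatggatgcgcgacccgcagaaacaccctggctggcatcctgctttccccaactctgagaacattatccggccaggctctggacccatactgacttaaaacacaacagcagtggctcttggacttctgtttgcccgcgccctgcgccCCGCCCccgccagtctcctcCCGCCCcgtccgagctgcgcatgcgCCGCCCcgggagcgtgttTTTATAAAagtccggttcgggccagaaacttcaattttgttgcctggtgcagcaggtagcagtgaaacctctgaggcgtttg
Itga4: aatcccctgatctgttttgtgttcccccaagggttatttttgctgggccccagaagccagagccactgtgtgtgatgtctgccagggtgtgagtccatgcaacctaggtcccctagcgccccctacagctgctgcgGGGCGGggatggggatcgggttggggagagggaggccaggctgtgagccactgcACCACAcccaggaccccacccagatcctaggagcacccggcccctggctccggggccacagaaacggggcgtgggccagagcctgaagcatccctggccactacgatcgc
Cd44: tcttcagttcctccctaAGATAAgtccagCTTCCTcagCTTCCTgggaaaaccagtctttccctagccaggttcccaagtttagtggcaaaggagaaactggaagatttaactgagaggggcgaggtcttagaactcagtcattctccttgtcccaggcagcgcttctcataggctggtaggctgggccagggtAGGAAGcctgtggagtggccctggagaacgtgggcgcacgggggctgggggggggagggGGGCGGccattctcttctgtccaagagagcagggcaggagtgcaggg
Cd9: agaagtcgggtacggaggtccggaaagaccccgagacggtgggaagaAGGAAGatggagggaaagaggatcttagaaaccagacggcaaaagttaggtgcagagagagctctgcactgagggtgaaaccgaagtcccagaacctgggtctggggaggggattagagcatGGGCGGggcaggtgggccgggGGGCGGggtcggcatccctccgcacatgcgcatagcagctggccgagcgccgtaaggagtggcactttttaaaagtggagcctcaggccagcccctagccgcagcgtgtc
Robo4: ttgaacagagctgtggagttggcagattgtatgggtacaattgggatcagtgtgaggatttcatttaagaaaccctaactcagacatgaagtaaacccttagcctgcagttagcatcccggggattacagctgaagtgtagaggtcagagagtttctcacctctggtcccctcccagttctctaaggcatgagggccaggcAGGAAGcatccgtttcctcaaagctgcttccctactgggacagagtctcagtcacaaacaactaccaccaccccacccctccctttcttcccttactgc
They lie at chr1:128592250-128592549 (minus strand), chr2:79255176-79255475 (plus), chr2:102901616-102901915 (minus), chr6:125494711-125495010 (minus) and chr9:37401722-37402021 (plus), in the order shown. The windows are unlike each other. That of Cxcr4 holds 20 CpG, 3 GC boxes and a TATA box read on both strands at overlapping positions starting 32 and 30 bases before the start, and no ETS core. That of Robo4 holds 2 CpG, 1 ETS core and no GC box, beside a median of 7 CpG over the 32544 windows in the table. Cd44 has 3 ETS cores and 1 GATA motif, Itga4 has 1 RUNX motif, 60 bases before the start, and Cd9 has 1 ETS core and 2 GC boxes. An ETS core was found in 46.3% of all windows, a GC box in 35.9%, a RUNX motif in 16.7%, a TATA box in 13.6% and a GATA motif in 11.2%. Of the 4 genes that were higher in every library labelled Ythdf3-/-, 3 have a window. These shared only the GC box, which the Cxcr4 window holds as well. The windows were picked by the genes' values, and a link between motifs and level was not tested.

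Cxcr4 (chr1:128588199-128592293), the receptor for CXCL12, was read at low level. Under the labels Ythdf3-/- 1, 2 and 3 it had 8, 39 and 19 counts (1.26, 4.30 and 2.71 CPM), and 254 and 50 counts (15.3 and 5.58 CPM) under WT 1 and 2. All libraries labelled Ythdf3-/- were below both labelled WT, but the library labelled Ythdf3-/- 2 (95% Poisson interval 3.06 to 5.87 CPM) overlapped that labelled WT 2 (4.14 to 7.35 CPM) in counting error alone. The mean was 2.75 ± 1.52 CPM (SD, n = 3) against 10.4 ± 6.85 CPM (SD, n = 2). The log2 fold change was -1.98 (95% interval -7.04 to 3.08), and -1.13 without the library labelled WT 1.

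Like Cxcr4, the other genes of the chemokine axis did not pass the edgeR test. Cxcl12, the ligand, and Ackr3, its second receptor, had 0 counts in all libraries, which allows at most between 0.331 and 0.472 CPM in those labelled Ythdf3-/- and between 0.18 and 0.335 CPM in those labelled WT (3 counts per library); both were named after their values were seen. Of 21 tested genes of CXCR4 signalling and its brakes, 0 passed, 9 were fitted higher and 12 lower under the Ythdf3-/- label, with a median log2 fold change of -0.10; with WT 1 left out, 14 were higher and 7 lower (median 0.20), and with WT 2 left out 8 were higher and 13 lower (median -0.40). Arrb1, encoding beta-arrestin 1, which desensitises and internalises such receptors, had 5, 10 and 141 counts under the Ythdf3-/- label and 1007 and 1431 under the WT label. It was lower in every library labelled Ythdf3-/-, with a log2 fold change of -4.03 (SE 1.63, edgeR adjusted p = 0.964) that was -6.93 with Ythdf3-/- 3 left out and -3.06 with WT 2 left out. Gnb2, a G protein beta subunit, averaged 89.2 ± 42.7 CPM under the Ythdf3-/- label (SD, n = 3) and 164.3 ± 56.7 CPM under the WT label (SD, n = 2), and its libraries overlapped.

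Itga4 (chr2:79255426-79333123), the alpha 4 chain, was the one integrin gene of the 4 whose libraries did not overlap between labels. Under the labels Ythdf3-/- 1, 2 and 3 it had 393, 447 and 216 counts (61.8, 49.3 and 30.8 CPM), and 92 and 180 counts (5.53 and 20.1 CPM) under WT 1 and 2. The lowest library labelled Ythdf3-/- (26.8 to 35.2 CPM) lay above the highest labelled WT (17.3 to 23.2 CPM) beyond counting error. The mean was 47.3 ± 15.6 CPM (SD, n = 3) against 12.8 ± 10.3 CPM (SD, n = 2), and the log2 fold change was 1.78 (95% interval -1.79 to 5.35). It was 1.11 with WT 1 left out and 3.06 with WT 2 left out. In the annotation 8.04% of its exon bases are shared with exons of Cerkl on the other strand, and reads there cannot be assigned without strand.

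Itga6 (chr2:71745616-71858416), the alpha 6 chain of the laminin receptors, did not separate the labels. It had 625, 552 and 293 counts (98.3, 60.8 and 41.8 CPM) under the Ythdf3-/- label and 1211 and 1130 counts (72.7 and 126.0 CPM) under the WT label. The library labelled WT 1 lay inside the range of those labelled Ythdf3-/-, and that labelled WT 2 was the highest of all. The mean was 67.0 ± 28.8 CPM (SD, n = 3) against 99.4 ± 37.7 CPM (SD, n = 2), with a log2 fold change of -0.67 (95% interval -2.44 to 1.11). This value ran from -1.04 with WT 1 left out to -0.16 with WT 2 left out, and was -1.02 with Ythdf3-/- 1 and -0.41 with Ythdf3-/- 3 left out.

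Itgb1 (chr8:128685654-128733200), the beta 1 chain that partners both, varied widely among the libraries labelled Ythdf3-/-. It had 174, 1208 and 1350 counts (27.4, 133.1 and 192.4 CPM) there and 1751 and 709 counts (105.2 and 79.1 CPM) under the WT label. The library labelled Ythdf3-/- 1, in which globin transcripts were high, was the lowest of the 5 and the other 2 of that label were the highest; the part of globin-bearing cells in this was not tested. The mean was 117.6 ± 83.6 CPM (SD, n = 3) against 92.1 ± 18.5 CPM (SD, n = 2). The log2 fold change of 0.26 (95% interval -1.67 to 2.2) was -0.26 without the library labelled Ythdf3-/- 3 and 0.76 with Ythdf3-/- 1 left out.

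The balance of the chains differed from library to library when levels were taken per kilobase of exon. Summed alpha 4 and alpha 6 levels were 2.28, 0.315 and 0.145 times the beta 1 level in the libraries labelled Ythdf3-/- 1, 2 and 3 and 0.328 and 0.795 times in those labelled WT 1 and 2. The ratio of Itga4 to Itga6, which depends on no scaling between libraries, was 0.406, 0.523 and 0.476 under the Ythdf3-/- label and 0.0491 and 0.103 under the WT label. It was chosen after the values were seen, and it describes these 5 libraries only. Within the Ythdf3-/- label the ratio stayed within a narrow range, as Itga4 and Itga6 fell together there. Both were, within that label, highest in the library labelled Ythdf3-/- 1 and lowest in that labelled Ythdf3-/- 3.

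**Figure D4:**
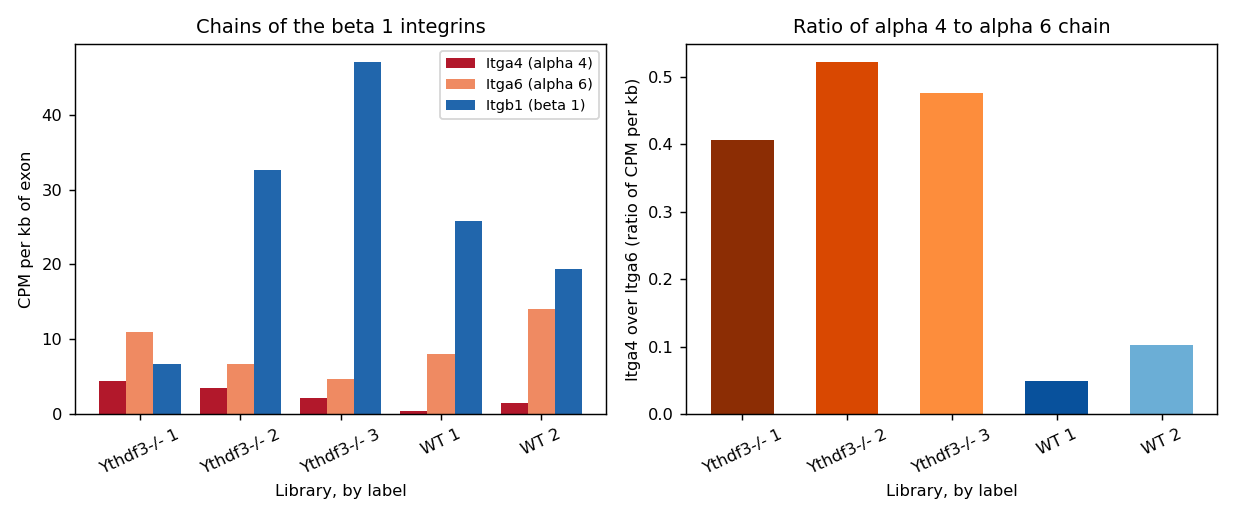
Left, CPM per kb of exon of Itga4, Itga6 and Itgb1 in each library; right, the ratio of Itga4 to Itga6 levels per kb, with the libraries labelled Ythdf3-/- left of those labelled WT. The ratio lay between 0.406 and 0.523 under the Ythdf3-/- label and at 0.0491 and 0.103 under the WT label, while Itgb1 ran from 6.71 to 47.1 CPM per kb among the libraries labelled Ythdf3-/-.

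Itgb2 (chr10:77530252-77565708), the beta 2 chain of leukocyte integrins, was nearly absent from some libraries of each label. Under the labels Ythdf3-/- 1, 2 and 3 it had 177, 178 and 1 counts (27.8, 19.6 and 0.143 CPM), and 15 and 61 counts (0.901 and 6.80 CPM) under WT 1 and 2. The highest and lowest of the 5 were both labelled Ythdf3-/-, so the labels overlapped. The mean was 15.9 ± 14.2 CPM (SD, n = 3) against 3.85 ± 4.17 CPM (SD, n = 2). The log2 fold change of 1.93 (95% interval -4.30 to 8.17) was 1.10 with WT 1 left out and 4.07 with WT 2 left out.

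Its alpha partners were scarce. Itgal, encoding the alpha L chain of LFA-1, had 16, 3 and 3 counts under the Ythdf3-/- label and 219 and 3 under the WT label, with a log2 fold change of -2.67 (SE 2.46) that became 1.53 without the library labelled WT 1. Itgam and Itgax, the myeloid alpha chains, were named after their values were seen. Itgam had 0, 0 and 40 counts under the Ythdf3-/- label and 3 and 0 under the WT label, and Itgax had 0 in all libraries. The highest Itgal value was in the library labelled WT 1 and the next in that labelled Ythdf3-/- 1, where Itgb2 was highest.

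Of the 22 other integrin subunits, 8 had no count in any library and 5 were tested. None passed, and all 5 were fitted lower under the Ythdf3-/- label (median log2 fold change -2.41), but without the library labelled WT 1 the median was 0.39 and 2 of 5 were lower. Itgb3, the beta 3 chain of the platelet and HSC integrins, had 1, 1 and 108 counts under the Ythdf3-/- label and 1182 and 32 under the WT label. Itgb7, the other partner of alpha 4, named after its values were seen, had 1, 0 and 5 counts under the Ythdf3-/- label and 1013 and 1 under the WT label. Both genes were highest in the library labelled WT 1, in which the B lymphoid marker sum was second highest. The 8 megakaryocyte and platelet markers, which include Itgb3 and Itga2b, summed to 154.8, 200.2 and 173.4 CPM under the Ythdf3-/- label and 358.0 and 213.8 CPM under the WT label. That sum was also highest in the library labelled WT 1 and was lower in every library labelled Ythdf3-/- than in both labelled WT; the part of other cells in the integrin values was not tested.

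Of 20 genes that switch integrins on and tie them to actin, 3 (Tln2, Fermt2 and Parva) had 0 counts in all libraries and 15 were tested. Of these 15, 0 passed, 7 were fitted higher and 8 lower, with a median log2 fold change of -0.04. With WT 1 left out, 9 were higher and 6 lower (median 0.31), and with WT 2 left out 6 were higher and 9 lower (median -0.62). Itgb1bp1, encoding ICAP-1, which binds the beta 1 tail, had 36.6, 69.1 and 34.5 CPM under the Ythdf3-/- label and 211.1 and 40.7 CPM under the WT label. Ptk2b, encoding the kinase PYK2, had 42.2, 7.60 and 74.0 CPM under the Ythdf3-/- label and 187.9 and 14.5 CPM under the WT label. Both were highest in the library labelled WT 1, and both fold changes turned round without it, Itgb1bp1 to 0.08 and Ptk2b to 1.36 on the log2 scale.

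Cd44 (chr2:102811141-102901665), the hyaluronan receptor, had 688, 628 and 642 counts (108.2, 69.2 and 91.5 CPM) under the Ythdf3-/- label and 675 and 580 counts (40.5 and 64.7 CPM) under the WT label. Its libraries did not overlap on the CPM scale, but on the TMM scale used in the fit the library labelled Ythdf3-/- 2 was at 68.64 CPM and that labelled WT 2 at 68.66 CPM, so there they did. The mean was 89.6 ± 19.6 CPM (SD, n = 3) against 52.6 ± 17.1 CPM (SD, n = 2). The log2 fold change was 0.67 (95% interval -1.15 to 2.49), 0.34 with WT 1 left out and 1.11 with WT 2 left out. The annotation holds 8 protein-coding transcripts of Cd44, and counts per gene cannot show which of its variant exons were used.

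Selplg (chr5:113818536-113832644), which encodes the selectin ligand PSGL-1, was the steadiest of the 10. It had 1812, 2191 and 2242 counts (285.0, 241.4 and 319.5 CPM) under the Ythdf3-/- label and 2818 and 1618 counts (169.2 and 180.4 CPM) under the WT label. The lowest library labelled Ythdf3-/- was above the highest labelled WT on both scales and beyond counting error. The mean was 282.0 ± 39.2 CPM (SD, n = 3) against 174.8 ± 7.90 CPM (SD, n = 2), with a log2 fold change of 0.60 (95% interval -0.31 to 1.5; edgeR unadjusted p = 0.169). Leaving out any 1 library kept this value between 0.51 and 0.70.

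PSGL-1 binds selectins only after sugars and sulphate have been added to it. Of 11 tested genes of these steps and of selectins, 0 passed in edgeR, 4 were fitted higher and 7 lower, with a median log2 fold change of -0.56. The median was 0.12 with WT 1, -0.02 with WT 2, -0.07 with Ythdf3-/- 2 and -1.05 with Ythdf3-/- 3 left out. Tpst1, a tyrosine sulfotransferase, had 349, 6 and 412 counts under the Ythdf3-/- label and 14 and 5 under the WT label, and its labels overlapped. Its log2 fold change was 5.64 (SE 2.70, edgeR adjusted p = 0.983), and DESeq2 called it (adjusted p = 0.0256). St3gal6, a sialyltransferase, had 189, 6 and 120 counts under the Ythdf3-/- label and 24 and 1309 under the WT label. Fut7, the fucosyltransferase of selectin ligands, named after its values were seen, had 1071 counts in the library labelled WT 1 and 0 in each of the others.

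Cd9 (chr6:125460266-125494791) stood highest of the 10 per kilobase. It had 1713, 3626 and 1855 counts (269.4, 399.5 and 264.4 CPM) under the Ythdf3-/- label and 3955 and 1148 counts (237.5 and 128.0 CPM) under the WT label. The libraries labelled Ythdf3-/- 1 and 3 were close above that labelled WT 1, and that labelled WT 2 was well below the rest. The mean was 311.1 ± 76.6 CPM (SD, n = 3) against 182.8 ± 77.5 CPM (SD, n = 2). The log2 fold change was 0.69 (95% interval -0.34 to 1.73; edgeR unadjusted p = 0.163), and ran from 0.36 with WT 2 left out to 1.16 with WT 1 left out. Exons of an antisense gene, Gm26728, share 10.7% of its exon bases.

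Among 19 tested tetraspanins and immunoglobulin adhesion molecules 0 passed, 12 were fitted higher and 7 lower, and the median log2 fold change was 0.29 (0.99 with WT 1 left out). Cd53, a leukocyte tetraspanin, had 175.4, 50.9 and 78.5 CPM under the Ythdf3-/- label and 24.6 and 31.1 CPM under the WT label, with no overlap and a log2 fold change of 1.77 (SE 0.94, edgeR adjusted p = 0.988). It was highest in the library labelled Ythdf3-/- 1, in which globin and B lymphoid markers were highest, and the log2 fold change was 1.15 with that library left out and 0.99 with WT 1 left out as well; the part of other cells was not tested. F11r, encoding the junction molecule JAM-A, had 14.6, 121.3 and 210.6 CPM under the Ythdf3-/- label and 6.91 and 40.7 CPM under the WT label, and overlapped.

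Cd47 (chr16:49800533-49915010), whose product binds SIRPA, had the highest CPM of the 10 on average. It had 2101, 2174 and 3417 counts (330.5, 239.5 and 487.0 CPM) under the Ythdf3-/- label and 4131 and 2281 counts (248.1 and 254.3 CPM) under the WT label. The lowest and the highest library were both labelled Ythdf3-/-, and the libraries labelled WT lay close together between them. The mean was 352.3 ± 125.2 CPM (SD, n = 3) against 251.2 ± 4.41 CPM (SD, n = 2), and the log2 fold change of 0.39 (95% interval -0.56 to 1.35) was 0.11 without the library labelled Ythdf3-/- 3 and 0.60 with Ythdf3-/- 2 left out. Of its 9 annotated protein-coding transcripts, none can be told apart here.

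Robo4 (chr9:37401897-37415115) was present in 3 libraries and close to 0 in the other 2. Under the labels Ythdf3-/- 1, 2 and 3 it had 205, 658 and 7 counts (32.2, 72.5 and 0.998 CPM), and 445 and 4 counts (26.7 and 0.446 CPM) under WT 1 and 2. One library of each label was thus near 0, with 95% Poisson intervals of 0.401 to 2.06 CPM and 0.122 to 1.14 CPM. The mean was 35.2 ± 35.8 CPM (SD, n = 3) against 13.6 ± 18.6 CPM (SD, n = 2), and the log2 fold change of 1.33 had a 95% interval of -3.95 to 6.62. It was 6.15 with WT 1, 0.36 with WT 2 and 0.24 with Ythdf3-/- 2 left out.

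Its relatives and ligands were mostly unread. Robo1, Robo2 and Slit3 had 0 counts in all libraries, Slit1 and Slit2 had 1 count each in all, and Robo3 had 0 counts in each library labelled Ythdf3-/- and 6 and 115 under the WT label; these were named after their values were seen. Of 10 tested genes of niche ligands and their receptors 0 passed in edgeR, 4 were fitted higher and 6 lower, and the median log2 fold change was -0.11. The median was 0.63 with WT 1, 0.10 with WT 2, -0.21 with Ythdf3-/- 2 and -0.45 with Ythdf3-/- 3 left out. Hmmr, a hyaluronan-binding protein of the mitotic spindle, had 0, 1 and 1 counts under the Ythdf3-/- label and 26 and 483 under the WT label. At so few counts the size of its fold change depends on the prior count and is not given; edgeR gave an adjusted p of 0.964, and DESeq2 called the gene (adjusted p = 0.0112). Efnb2, encoding the ligand ephrin-B2, had 49, 0 and 57 counts under the Ythdf3-/- label and 0 in both libraries labelled WT.

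**Figure D5:**
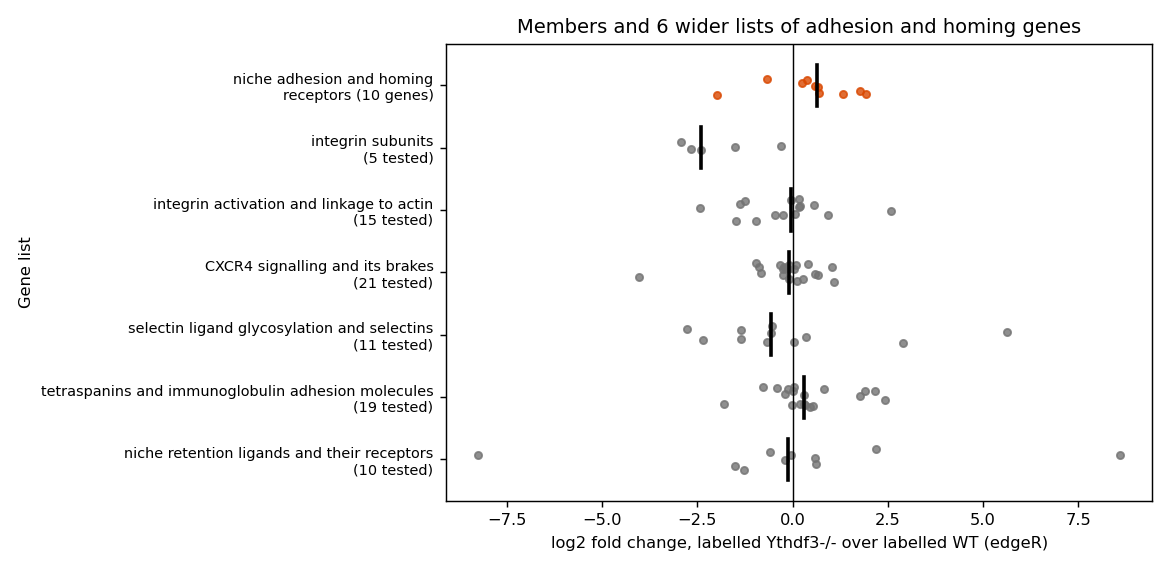
Fitted log2 fold changes (labelled Ythdf3-/- over labelled WT) of the 10 receptor genes and of the tested genes in 6 wider lists; each point is a gene and the black bar the median of the list. Medians ran from -2.41 for other integrin subunits to 0.63 for the 10 receptor genes, and no gene passed the edgeR test.

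Ordered by level per kilobase of exon over all 5 libraries, Cd9 came first at 127.1 ± 47.4 CPM per kb (SD, n = 5). Selplg at 56.0 ± 15.2 and Cd47 at 49.7 ± 16.6 CPM per kb followed, then Itgb1 at 26.3 ± 15.1 CPM per kb. Cd44 (11 ± 3.84) and Itga6 (8.86 ± 3.65 CPM per kb) made a middle pair, and Robo4, Itgb2, Cxcr4 and Itga4 had means between 5.01 and 2.40 CPM per kb. No neighbours in this order differed beyond their spread over libraries, although Cd9 was above Selplg, and Cd47 above Itgb1, in each of the 5 libraries. Exon length takes in every annotated transcript, which lowers the value of genes with long alternative ends such as Itga4 (13.98 kb).

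Since YTHDF3 reads m6A, the genes were searched for GGACT, a frequent form of the m6A consensus, in the transcript with the longest coding sequence. A match is only a string of letters, and no methylation was measured. Density ran from 0.524 per kb in Itgb1 to 2.69 per kb in Itgb2, beside a median of 1.04 per kb over 9690 tested genes with a coding transcript. The genes whose labels did not overlap lay on both sides of that median, with Cxcr4 at 0.554, Selplg at 0.539 and Itga4 at 1.02 per kb, and Cd44 at 1.60 and Cd9 at 1.63 per kb. The match nearest to the stop codon is shown for these 5, in capitals, from GENCODE M21.
Cxcr4: tgtgtgtaGGACTgtagaact
Selplg: ggcagtgtGGACTggggccct
Itga4: tgctacttGGACTtattgtac
Cd44: tcatccaaGGACTccaggggg
Cd9: atggcgttGGACTgctgtggc
That of Cxcr4 lies 265 bases after the stop codon, in the 3′ untranslated region. Those of Itga4, Cd44 and Cd9 lie in coding sequence, and the only match of Selplg lies before it. Counting every match, 6 of 10 in Itga4, 4 of 9 in Cd44 and 0 of 2 in Cd9 lie in the 3′ untranslated region. Of the genes that were higher in every library labelled Ythdf3-/-, Selplg had a density close to that of Cxcr4, each with 1 match. Itga4, Cd44 and Cd9 had higher densities than Cxcr4. These 5 genes were picked by their values, and a link between density and level was not tested.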

How the data were processed

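The deposited table holds the authors' unnormalised read counts by gene symbol, for 3 libraries labelled Ythdf3-/- and 2 labelled WT. Smart-seq2 libraries were sequenced as paired 150-bp reads, per the labels' protocols, and the method keeps neither strand nor molecule identifiers. HISAT2 2.2.1, HTSeq 0.12.4 and mm10 are named in the submitters' processing notes. Which annotation was counted, the strand option and the handling of multiply mapping reads were not given in the sources used here. Groups follow the sample titles. The 10 genes and the 6 wider lists were chosen with earlier results of these data known.

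Counts were fitted over the whole table by edgeR 4.0.16 and its quasi-likelihood test in R 4.3.3 (default expression filter, TMM scaling, robust, no covariate; Benjamini-Hochberg at 0.05), and the common biological coefficient of variation was 1.26. Standard errors and intervals come from the fold change and its F statistic. CPM is a count over the library total, and 1 count is worth 0.0601 to 0.157 CPM. Poisson intervals cover counting error only. DESeq2 1.42.0, limma 3.58.1 (voom), 3 other scalings, no filter, a stricter filter, a replicate block and left-out libraries were alternatives; leaving out the libraries labelled WT 1 and Ythdf3-/- 1 together was chosen after seeing the data. The fit was also run on simulated counts, and as the outcome is not given here, no result rests on it. Exon lengths and positions are from GENCODE M21 (GRCm38, which is mm10) and promoter windows from RefSeq (GRCm38.p6). All 10 genes were named, with Ythdf3 and the 2 genes of smallest p in each wider list; others are said to be chosen later.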

Additional observations from a re-analysis of the deposited data

How the results depend on the processing

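Over 147 alternative values for the 10 genes, 144 kept their direction and stayed above the threshold, and the lowest adjusted p was 0.511 (Itga4, DESeq2). The exception was Itgb1, whose log2 fold change of 0.26 became -0.05 with limma voom and -0.67 with the replicate block; leaving out 1 library it ran from -0.26 to 0.76, and it was 0.97 without WT 1 and Ythdf3-/- 1. Leave-one-out ranges were -3.63 to 1.53 for Itgal, -8.05 to 0.39 for Itgb3, -2.22 to 1.36 for Ptk2b, -2.21 to 0.08 for Itgb1bp1 and -3.35 to 3.40 for St3gal6. The -8.05 for Itgb3 rests on 1 count in each remaining library labelled Ythdf3-/-, so its size depends on the prior count. Itgal had no value with Ythdf3-/- 1 left out. Without the libraries labelled WT 1 and Ythdf3-/- 1, log2 fold changes were 1.05 for Itgb3, 1.42 for Ptk2b, 0.27 for Itgb1bp1 and -4.11 for St3gal6. Without those labelled WT 2 and Ythdf3-/- 1 they were 2.56 for St3gal6, -5.14 for Itgal and -2.26 for Ptk2b. That Itgal value rests on 3 counts in each remaining library labelled Ythdf3-/-. Leaving out a library labelled WT leaves 1, which is then assumed to vary like the others. Over all genes 0 passed in edgeR, with 541 at an unadjusted p under 0.05, against 594 in DESeq2, 0 in limma voom, 21 with no filter, and 1 without the libraries labelled WT 1 and Ythdf3-/- 1; leaving out 1 library gave 0 to 1. DESeq2 called 2 genes of the wider lists, Tpst1 and Hmmr. In these lists 45 genes were fitted lower, 29 to 46 leaving out 1 library and 49 without WT 2 and Ythdf3-/- 1. The count of 5 genes without overlap was 4 on the TMM scale, where 20.9% of all tested genes did not overlap. It was 5 to 7 leaving out 1 library. Fewer libraries make overlap rarer: 33.3% to 52.6% of all tested genes did not overlap with 1 library left out. Without the libraries labelled WT 1 and Ythdf3-/- 1 the count was 8. The share over all tested genes was not calculated there, so that count cannot be weighed. Only 1 of 10 places in the order by level was held by the same gene without length. Cxcr4, Itgb2 and Robo4 did not pass the stricter filter and have no value there. The replicate numbers were not shown to pair libraries: deviations of same-numbered libraries correlated at -0.0043 and 0.00939, and with 2 such pairs the replicate block gave 0 calls over all genes and, for Robo4 and Cd47, log2 fold changes of 3.62 and 0.09. Other causes of these shifts were not tested.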

Other observations

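Angpt1, a niche factor that HSCs also make, had 536.5, 605.9 and 624.4 CPM in the libraries labelled Ythdf3-/- and 444.6 and 287.7 CPM in those labelled WT, with no overlap. Esam, an adhesion molecule of HSCs and endothelium, had 221.9, 207.2 and 224.5 CPM against 162.3 and 170.7 CPM under the WT label. Both were named after their values were seen, and neither passed the edgeR test. Of the 81 tested genes of the 6 wider lists, 3 were higher without overlap under the Ythdf3-/- label and 5 were lower without overlap. The higher ones were Angpt1, Esam and Cd53. The lower ones were Arrb1, Hmmr, Pxn, Gcnt1 and Alcam, of which Pxn, Gcnt1 and Alcam were also named after their values were seen. Over all genes tested, 20.7% did not overlap.

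In the libraries where Robo4 was near 0, labelled Ythdf3-/- 3 and WT 2, some genes of the wider lists were lowest and others were highest. The genes given here for either pattern were picked after their values were seen, and neither pattern was tested. Jam3, a junctional adhesion molecule, had 46.4, 40.2 and 0.285 CPM under the Ythdf3-/- label and 14.7 and 0.335 CPM under the WT label. S1pr2, a sphingosine 1-phosphate receptor, had 225, 255 and 0 counts under the Ythdf3-/- label and 148 and 0 under the WT label. Icam2 had 268.3, 309.1 and 121.6 CPM against 250.7 and 55.1 CPM under the WT label. The other way round, Cd151, a tetraspanin, had 1.10, 0 and 42.6 CPM under the Ythdf3-/- label and 0.18 and 20.6 CPM under the WT label. Ephb4, an ephrin receptor, had 0, 1 and 102 counts under the Ythdf3-/- label and 0 and 192 under the WT label. Tspan33 had 1, 0 and 38 counts under the Ythdf3-/- label and 0 and 35 under the WT label.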
